A study of Hordeum vulgare with 12 samples.

Results

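Isolated VRS5 peaks are the VRS5 binding regions that stand alone on a barley chromosome, with no other peak summit within 100 kb on either side. The rule found 1327 such peaks among the 99518 listed on 1H to 7H, a share of 1.33% (95% Wilson interval 1.26 to 1.41). The members were chosen by the positions of the summits alone. The other 98191 peaks served for comparison, together with the 7396 peaks among them whose nearest summit lay over 50 and up to 100 kb away. Binding was measured by DNA affinity purification sequencing (DAP-seq), in which a tagged protein made in vitro captures fragments of purified genomic DNA that are then sequenced. VRS5-FLAG, the VRS5 coding sequence of cv. Bowman with a C-terminal 3xFLAG tag, was the bait in 6 libraries. GFP-FLAG, a tagged fluorescent protein that does not bind DNA by sequence, was the bait in the other 6. Both baits were expressed in a wheat germ extract, and all 12 libraries held DNA of developing inflorescences of cv. Morex, taken 4 weeks after sowing at about Waddington stage 4, and each replicate took 100 mg of tissue. As the DNA is naked, an isolated peak is a place where VRS5 held DNA in vitro, whatever the chromatin of the living inflorescence. The libraries of each bait were pooled before peaks were called, so that each peak has 1 value and no replicate error. All intervals below are for counting error alone, as if each peak were independent of the next, no test between libraries could be made, and the depth of the libraries was not analysed here.

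VRS5, also known as HvTB1 or INTERMEDIUM-C, is the barley ortholog of maize TEOSINTE BRANCHED 1. It belongs to class II of the TCP transcription factors, a family found only in plants whose members bind short GC-rich sites as dimers. In maize TB1 holds back the outgrowth of axillary buds, and in barley VRS5 limits tillering and the development of the lateral spikelets. The barley genome is large and rich in repeats, and its genes lie more densely toward the chromosome ends than around the centromeres.

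The nearest other summit lay at a median of 120 kb from an isolated one, with quartiles of 108 and 143 kb, against a median of 10.9 kb for the other peaks, and this difference is what the rule selects. Just inside the limit was a peak on 1H from 72968749 to 72969072 (MorexV3, as all coordinates here), enriched 4.62-fold, whose nearest summit was 100010 bp away. Just outside it was a peak on 2H from 505757774 to 505757941, enriched 5.56-fold, whose nearest summit was 99.995 kb away. The distance between the neighbouring summits on both sides had a median of 297 kb and ran from 201 to 1679 kb over the 1322 isolated peaks that had a neighbour on each side. The other 5 were the first or the last peak of their chromosome. The most isolated peak lay on 7H from 8149785 to 8149990, in the outer 10% of the chromosome. Its neighbours were 522 kb away on the side of lower coordinates and 712 kb away on the other. It was a weak peak of 3.48-fold, with 64 VRS5-FLAG reads at its summit over a GFP-FLAG background of 17.7. Its summit was 961 bp from LOC123407298, which makes it also one of the few isolated peaks next to a gene. The second most isolated peak, on 3H from 280203903 to 280204189, was different in place: it lay at 45.1% of the length of 3H, 227 kb from the nearest protein-coding gene, and was enriched 5.42-fold. Among the 10 most isolated peaks, fold enrichment ran from 3.07 to 6.15, 7 lay in the outer 10% at either end of a chromosome and 3 lay within 15 kb of a protein-coding gene.

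In strength and shape the isolated peaks were close to the other peaks. Fold enrichment, the ratio of VRS5-FLAG reads to the local GFP-FLAG background with 1 added to each, had a median of 4.30 in isolated peaks (95% interval 4.27 to 4.37) and 4.38 in the other peaks (4.38 to 4.39). The median was lower in isolated peaks on 5 of 7 chromosomes, all but 2H (4.45 against 4.40) and 4H (4.43 against 4.37). The quartiles were 3.86 and 5.08 in isolated peaks and 3.86 and 5.21 in the other peaks. The number of VRS5-FLAG reads at the summit had a median of 52 in isolated peaks and 54 in the other peaks. The GFP-FLAG background had a median of 10.9 in both sets, and the median width was 272 bp in isolated peaks and 273 bp in the other peaks.

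High fold enrichments were slightly less frequent among isolated peaks than among all the other peaks. At the very top the difference was within counting error. Of the isolated peaks, 146 (11%, 9.43 to 12.8) exceeded a fold enrichment of 6, against 12602 of the other peaks (12.8%, 12.6 to 13.0), where the share over all peaks was 12.8%. A fold enrichment over 10 was reached by 4 isolated peaks (0.301%, 0.117 to 0.772) and 446 of the other peaks (0.454%, 0.414 to 0.498), against 0.452% over all peaks. The difference of -0.153 percentage points has an interval of -0.342 to 0.320, so that it is not resolved. A q below 1e-20 was reached by 378 isolated peaks (28.5%) and 31350 of the other peaks (31.9%), against 31.9% of all peaks. The peaks whose nearest summit was 50 to 100 kb away had shares close to those of isolated peaks. Of them, 10.38% exceeded a fold enrichment of 6, 0.216% exceeded 10 and 28.3% had a q below 1e-20. The lower frequency was thus not particular to isolated peaks. When all peaks were divided into 10 classes of equal size by fold enrichment, isolated peaks made up 1.09 to 1.60% of each class, with no steady trend from weak to strong.

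**Figure D1:**
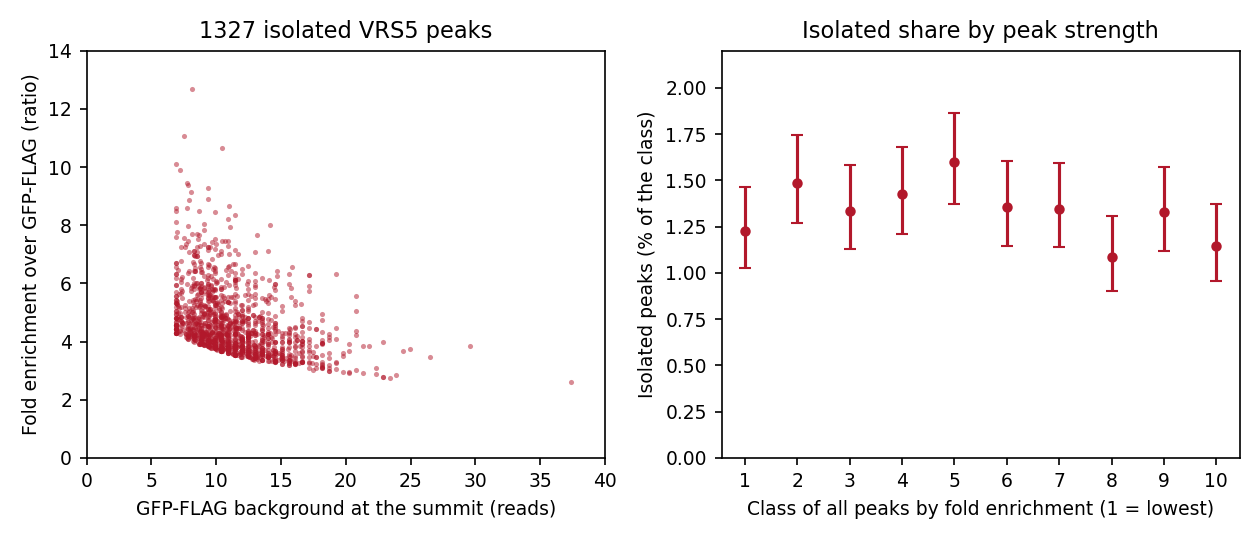
Left, fold enrichment over GFP-FLAG of each of the 1327 isolated VRS5 peaks (ratio, vertical axis) against the GFP-FLAG background at its summit (reads, horizontal axis); the lower edge of the points falls as background rises, because every peak had to pass the same q threshold. Right, the share of isolated peaks in each of 10 equal classes of all VRS5 peaks by fold enrichment, with 95% Wilson intervals; the shares lie between 1.09 and 1.60%.

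The strongest isolated peak lay on 5H from 282785072 to 282785532 and was enriched 12.7-fold, with 115 VRS5-FLAG reads over a background of 8.15 and a -log10 q of 83.0. By fold enrichment it ranked 34 among all peaks on 1H to 7H. Its neighbours were 105 and 113 kb away and were enriched 4.07- and 5.17-fold, so that this strong site stood between ordinary ones. It lay in the middle of the chromosome, at 48.1% of its length, and its nearest protein-coding gene, LOC123453139, was 88.8 kb away. The next, on 5H from 312589740 to 312590059, was enriched 11.1-fold, lay 54.7 kb from LOC123395609 and had neighbours of 3.16- and 3.79-fold.

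A peak of 10.6-fold on 7H, from 626304280 to 626304819, lay near the chromosome end and 7.73 kb from LOC123413266, with 7 protein-coding genes within 100 kb. A peak of 10.1-fold on 3H, from 11604245 to 11604505, was 4.12 kb from LOC123442503 and had 8 genes within 100 kb. These were the only peaks within 15 kb of a gene among the 10 strongest isolated ones. The 3H peak had the lowest GFP-FLAG background of the list, 6.91, and its neighbour at higher coordinates was itself enriched 8.60-fold.

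The remaining 6 of the 10 strongest isolated peaks were enriched 8.88- to 9.90-fold. On 1H, the peak from 92769549 to 92769888 (9.90-fold) was 130 kb from LOC123425946, and on 6H the peak from 37304242 to 37304710 (9.47-fold) was 268 kb from LOC123405022. On 2H, the peak from 226888681 to 226889296 (9.37-fold) was 248 kb from LOC123425943. The last 3 were on 7H. They were the peak from 127165226 to 127165578 (9.27-fold), 125 kb from LOC123409326, the peak from 41016175 to 41016455 (9.15-fold), 39.5 kb from LOC123407630, and the peak from 353095296 to 353095580 (8.88-fold), 183 kb from LOC123407489. In all, 7 of the 10 strongest lay over 50 kb from a protein-coding gene. Within that distance lay 54.6% of all isolated peaks and 35.2% of all peaks on 1H to 7H. These 10 peaks are extremes, and whether strong isolated peaks lie farther from genes was not tested. The background of the 10 strongest ran from 6.91 to 10.5, at or below the median of 10.9. MACS2 sets the lowest background from a genome size parameter, and the 274 isolated peaks whose background was under 8.83 would lose fold enrichment if the assembled length were used.

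By number of reads the highest isolated peak was another one, on 4H from 253914420 to 253914788. It held 127 VRS5-FLAG reads over a background of 19.2, which gave a fold enrichment of 6.33. The widest isolated peak, on 7H from 410923367 to 410925256, spanned 1890 bp with a fold enrichment of 3.67.

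Isolated peaks were found near genes more often than the other peaks. A protein-coding gene span of RefSeq began or ended no more than 15 kb from the summit, or held it, for 344 isolated peaks (25.9%, 23.6 to 28.3) and 11422 of the other peaks (11.6%, 11.4 to 11.8), where the share over all peaks was 11.8%. The difference was 14.3 percentage points (Newcombe interval 12 to 16.7). The peaks whose nearest summit was 50 to 100 kb away lay between these values, with 18.7% (17.9 to 19.6). The share was higher in isolated peaks on 7 of 7 chromosomes, and the intervals of both sets were apart on each. It was highest on 7H, with 30.1% of isolated and 11.7% of other peaks, and lowest on 4H, with 16.2% of isolated and 9.82% of other peaks. The median distance to the nearest protein-coding gene was 41.5 kb for isolated peaks (36.9 to 46.6) and 80.7 kb for the other peaks (79.9 to 81.5). The rule reads only summit positions, but peaks were sparser where genes are dense, so that nearness to genes is not fully independent of the rule, and the comparison is given as a description.

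The same order was seen at every window tried. A protein-coding gene was within 50 kb of 54.6% of isolated peaks and 34.9% of the other peaks (35.2% of all). Within 5 kb of one lay 11.1% of isolated peaks and 4.33% of the other peaks (4.42% of all), within 2 kb 5.58% and 1.90% (1.95% of all), and within 1 kb 3.54% and 1.22% (1.26% of all). Other classes of annotated genes also lay within 15 kb of isolated peaks more often than of the other peaks. A pseudogene lay within 15 kb of 82 isolated peaks (6.18%, 5.01 to 7.61) and of 2.73% of the other peaks, against 2.77% of all. A long non-coding RNA gene lay that near to 38 isolated peaks (2.86%, 2.09 to 3.91) and 1.66% of the other peaks, against 1.68% of all. A tRNA gene, whose product carries amino acids to the ribosome, lay that near to 15 isolated peaks (1.13%, 0.686 to 1.86) and 0.247% of the other peaks, against 0.259% of all. For ribosomal RNA genes the counts were 5 isolated peaks (0.377%, 0.161 to 0.879) and 39 of the other peaks (0.0397%), against 0.0442% of all. For small nucleolar RNA genes they were 6 isolated peaks (0.452%) and 0.213% of the other peaks, against 0.216% of all, and the interval of that difference, -0.0074 to 0.771 percentage points, includes 0. The peaks whose nearest summit was 50 to 100 kb away lay between the 2 sets in each class. Their share was 4.49% for pseudogenes and 0.487% for tRNA genes. For long non-coding RNA genes it was 2.54% (2.21 to 2.93), within the interval of isolated peaks, so that trait was not particular to them.

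Most isolated peaks near a gene had only 1 within 15 kb. Of the 344 isolated peaks with a protein-coding gene within 15 kb, 246 had 1 such gene, 74 had 2 and 24 had more, up to 10. Together they lay near 479 different genes, 1.56% of the 30627 protein-coding genes annotated on 1H to 7H. The same counts are not given here for the other peaks, so they describe the isolated peaks without a comparison. Whether any of these genes is regulated by VRS5 was not tested. At the other extreme, 357 isolated peaks (26.9%, 24.6 to 29.4) had no protein-coding gene within 100 kb, against 42.7% of the other peaks and 42.5% of all. The isolated peak farthest from a protein-coding gene, on 5H from 182008267 to 182008633, was 1568 kb from LOC123452997 and was enriched 4.16-fold. Strength differed little with distance among the isolated peaks. The median fold enrichment was 4.28 (4.21 to 4.37) for those outside a gene but within 15 kb and 4.36 (4.25 to 4.49) for those over 100 kb away. SOC1-like, a flowering-time gene of the MADS-box family named in the study and placed here as LOC123437294 on 1H, had no isolated summit within 100 kb. The nearest isolated peak was 1.85 Mb away. The paper reports a VRS5 peak upstream of this gene, with binding also seen in mobility shift and luciferase assays. That peak is thus not among the isolated ones, and its absence here does not mean absence of binding. No other gene named in the paper is placed here.

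Some isolated peaks lay inside genes. The summit fell within a protein-coding gene span for 30 isolated peaks (2.26%, 1.59 to 3.21) and 752 of the other peaks (0.766%, 0.713 to 0.822), where the share over all peaks was 0.786%. It did so for 112 of the peaks whose nearest summit was 50 to 100 kb away (1.51%, 1.26 to 1.82). Their interval overlaps that of the isolated peaks. The 30 genes had a median span of 14762 bp, from 503 to 156096 bp, against a median of 2864 bp over all protein-coding genes. A longer span has more room to hold a summit, so this difference is partly fixed in advance. The spans of genes that hold other peaks are not given here. These 30 peaks had a median fold enrichment of 4.21 (3.87 to 4.71), with an interval that holds the median of all isolated peaks, 4.30. Their highest value was 6.63-fold. A set of 30 is too small for its highest value to be compared with that of the isolated peaks outside genes. The annotation used here gives no exons, strands or descriptions, so that exon or intron, upstream or downstream, and the function of a gene were not analysed here.

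The strongest isolated peak inside a gene, on 5H from 494970981 to 494971480, was enriched 6.63-fold with 68 reads and lay in LOC123399991, a gene of 3531 bp. The next was on 3H from 448197685 to 448198081, in the 21868 bp of LOC123440129, at 6.61-fold. On 1H, a peak of 6.58-fold from 7403923 to 7404211 lay in LOC123404108, in a dense stretch with 10 protein-coding genes within 100 kb. On 3H, a peak of 6.44-fold from 613844187 to 613844735 was wider than the gene it lay on, LOC123441132, of 503 bp. The peak of 5.90-fold on 7H in LOC123412817 held 106 reads over a background of 17.2.

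The next 5 by fold enrichment lay in LOC123395533 on 5H (5.84-fold), LOC123409523 on 7H (5.14-fold), LOC123427554 on 2H (5.13-fold), LOC123425043 on 2H (4.80-fold) and LOC123448584 on 4H (4.71-fold). Of these 5 genes, 4 had spans of 47648 to 94608 bp, and LOC123425043 spanned 1192 bp. The 200 kb around the summit in LOC123395533 were covered to 39.2% by greenscreen regions, stretches with many reads in the GFP-FLAG libraries from which the authors removed peaks.

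Isolated peaks were concentrated at the chromosome ends. The outer 10% at either end of a chromosome held 557 isolated peaks (42.0%, 39.3 to 44.6) and 14383 of the other peaks (14.6%, 14.4 to 14.9), where the share over all peaks was 15%. The share was higher in isolated peaks on 7 of 7 chromosomes, from 32.7% of isolated peaks on 5H to 46.9% on 7H. With each chromosome divided into 10 equal parts, the part with the highest coordinates held 320 isolated peaks, 4.55% (4.08 to 5.06) of all peaks there. That with the lowest held 237, 3.0% (2.65 to 3.40) of all peaks there. In parts 3, 4, 7 and 8 isolated peaks made up 0.722 to 0.751%. A smaller rise lay in part 5, just before the middle, with 130 isolated peaks, 1.32% (1.11 to 1.57) of the peaks there. The end parts were also poorer in peaks of any kind. They held 7663 and 6720 of the other peaks, against 9702 to 10865 in each part between them. The rule favours places with few peaks, so position is not independent of it, and the comparison is given as a description.

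**Figure D2:**
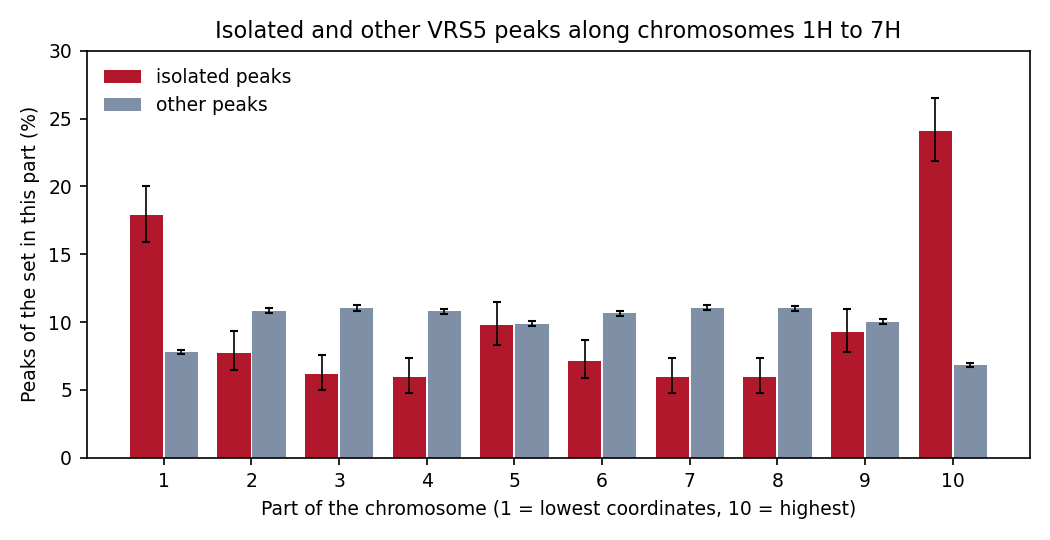
Percentage of the 1327 isolated (red) and the 98191 other (grey) VRS5 peaks that lay in each of 10 equal parts of the chromosome, pooled over 1H to 7H (horizontal axis, from the lowest to the highest coordinates); error bars are 95% Wilson intervals. Isolated peaks stand above the other peaks in the first part (17.9 against 7.80%) and in the last (24.1 against 6.84%). The rule itself favours parts with few peaks.

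The isolated peaks of the ends and of the middle differed in what surrounded them. In the outer 10%, 231 of the 557 isolated peaks lay within 15 kb of a protein-coding gene (41.5%, 37.5 to 45.6), against 25.8% (25.1 to 26.5) of the other peaks there. In the inner 80% of the chromosomes, 113 of 770 did (14.7%, 12.4 to 17.4), against 9.20% (9.01 to 9.40) of the other peaks there. The difference between isolated and other peaks was thus 15.7 percentage points (11.6 to 19.9) in the outer 10% and 5.48 (3.14 to 8.16) in the inner part, and it kept its direction in both. In part 5, 4 of the 130 isolated peaks (3.08%, 1.20 to 7.64) lay within 15 kb of a gene, against 4.46% of the other peaks, and the median distance was 197 kb for isolated and 185 kb for other peaks. There the isolated peaks did not lie nearer to genes. Fold enrichment differed little between the ends and the middle, with medians of 4.30 for the isolated peaks of the outer 10% and 4.32 for those of the inner part. Set against the other peaks of the same 10 Mb of chromosome, the near-gene share was 25.9% for isolated peaks and 19.5% for the other peaks when each bin was weighted by its isolated peaks. Of the 90 bins with 5 or more isolated peaks, the share was higher in isolated peaks in 58 and lower in 31. The fold enrichment of 642 isolated peaks (48.4%) was above the median of the other peaks of their bin.

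The passage from clustered to isolated peaks was gradual for position and nearness to genes. The share within 15 kb of a gene was 9.10% for peaks whose nearest summit was 5 to 10 kb away and 14.9% at 20 to 50 kb. Among the isolated peaks it was 23.4% (20.9 to 26.1) at 100 to 150 kb, 37.3% (30.8 to 44.3) at 150 to 200 kb and 31.3% (22.4 to 41.9) beyond 200 kb, where 83 peaks were left and the interval overlaps the one before. The share in the outer 10% was 14.8% up to 1 kb, 13.3% at 5 to 10 kb and 21.1% at 50 to 100 kb. It was 36.3% at 100 to 150 kb, 61.1% at 150 to 200 kb and 68.7% beyond 200 kb. Fold enrichment showed no such trend. Its median was lowest, 4.15 (4.11 to 4.19), up to 1 kb and 4.47 (4.45 to 4.48) at 5 to 10 kb. In each class beyond 20 kb it was between 4.30 and 4.33.

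**Figure D3:**
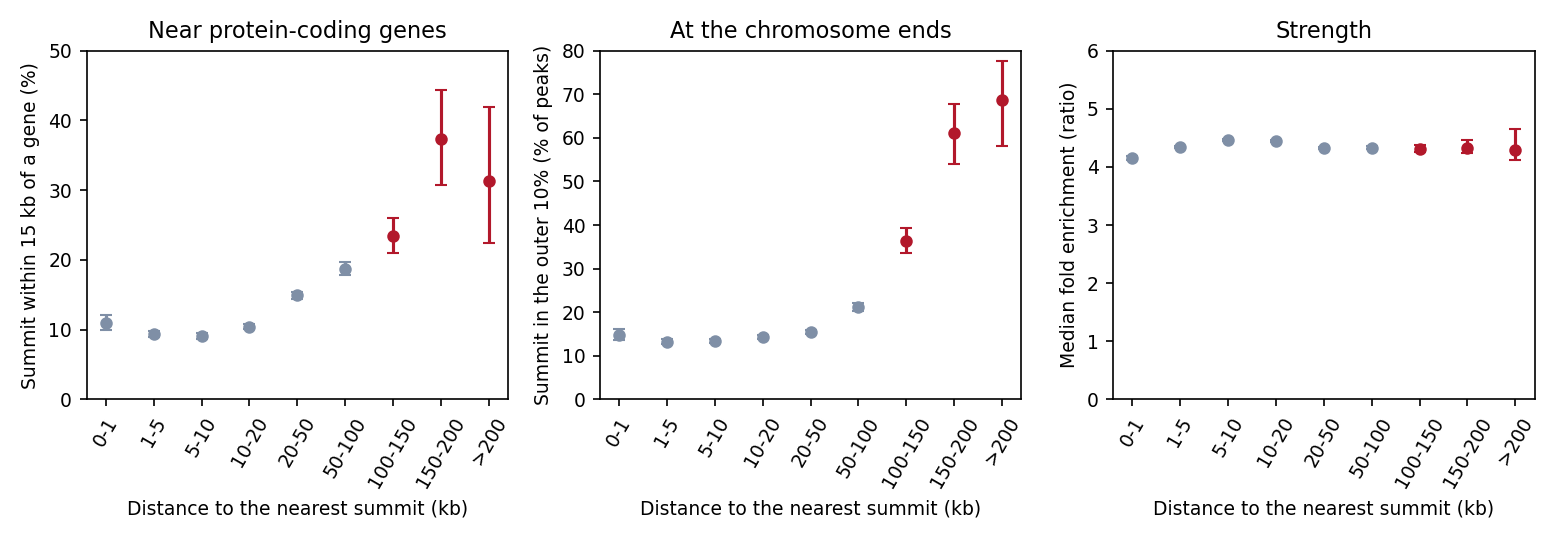
VRS5 peaks by the distance to the nearest other summit (kb, horizontal axes; red, isolated peaks; grey, other peaks), with the share within 15 kb of a protein-coding gene (left), the share in the outer 10% at either chromosome end (middle) and the median fold enrichment (right). Bars are 95% intervals. The rise beyond 5 kb, from 9.10 to 37.3% and from 13.3 to 68.7% in the first 2 panels, is absent from the third.

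The stretches around isolated peaks held more genes and more greenscreen sequence than those around the other peaks. Within 100 kb of the summit lay a median of 2 protein-coding genes for isolated peaks and 1 for the other peaks, with means of 2.54 and 1.22. At least 5 such genes lay there for 259 isolated peaks (19.5%, 17.5 to 21.7) and for 4.83% of the other peaks, against 5.03% of all. The most, 24, surrounded a peak on 5H between 509274169 and 509274482, of 4.50-fold, which lay 1.98 kb from LOC123451832. Another, of 4.43-fold on 3H from 11188929 to 11189117, was 1.15 kb from LOC123441318 and had 23. Greenscreen regions, which cover 6.48% of 1H to 7H, took up a mean of 8.0% of the 200 kb around isolated summits and 5.92% of those around other summits, with medians of 5.62 and 3.26%. The mean was higher around isolated peaks on 7 of 7 chromosomes. Any peak on such a region was removed by the authors, so that part of the space around these peaks could hold no listed neighbour. The part of this removal in the isolation of the peaks was not tested. No greenscreen region lay within 100 kb of 371 isolated peaks (28.0%, 25.6 to 30.4) and of 32.4% of the other peaks, against 32.3% of all. Among the peaks without one, 26.4% of the isolated (22.2 to 31.1) and 11.3% of the other peaks had a protein-coding gene within 15 kb.

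The gene difference narrowed at the 100 kb of the rule but reached past it, while the higher greenscreen cover around isolated peaks ended there. Gene cover around isolated peaks was 5.01% at 90 to 100 kb and 4.03% at 100 to 110 kb. From 20 to 100 kb from isolated summits, gene spans covered between 5.01 and 5.95% of the sequence in classes of 10 kb, and from 100 to 300 kb between 4.03 and 4.95%. Around the other peaks they covered between 2.53 and 3.07% and between 2.87 and 3.04% over these ranges. Greenscreen regions covered 8.23% at 90 to 100 kb from isolated summits and 6.53% at 100 to 110 kb, against 6.49 and 6.45% around the other peaks. From 100 to 300 kb it ran between 5.36 and 7.04% around isolated peaks and between 6.45 and 6.65% around the other peaks. In most of these classes, though not all, it was lower around isolated peaks.

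**Figure D4:**
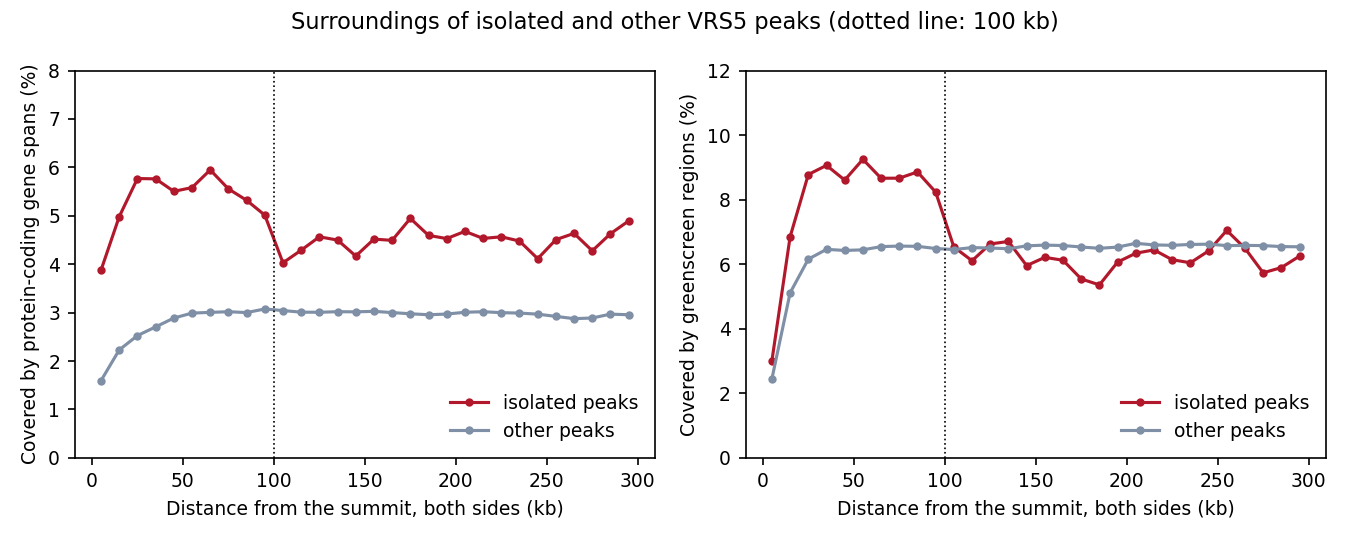
Mean share of sequence covered by protein-coding gene spans (left) and by greenscreen regions (right), in classes of 10 kb by distance from the summit on both sides (kb), around isolated (red) and other (grey) VRS5 peaks; the dotted line marks the 100 kb of the rule. Beyond that line gene cover around isolated peaks stays at 4.03 to 4.95%, above that around the other peaks, and greenscreen cover, 8.23% just inside the line, lies at 5.36 to 7.04%, on both sides of that around the other peaks.

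Isolation holds for the final list of peaks, and the numbering of the peaks skipped numbers in between. The names of the listed peaks carry running numbers up to 391188, which rise along each chromosome and were read as the numbers MACS2 gave its calls. Numbers missing between neighbours thus count calls that did not enter the final list, because they missed the threshold of q below 1e-10 or lay on a greenscreen region, and which of these cannot be told apart. Between the neighbours of an isolated peak a median of 20 numbers was missing, with quartiles of 16 and 25 and a range of 2 to 65. None of the 1322 isolated peaks with both neighbours lacked such calls on both sides, and 11 lacked them on 1 side. The rule makes these spans long, and at the rates given below a count of 0 over both sides is unlikely. Taken singly, 8 of the 2415 stretches next to isolated peaks had no missing call. Of the 7789 other stretches of over 100 kb, 7 had none. Next to isolated peaks 63.4 calls per Mb were missing, against 67.6 per Mb in the other stretches of over 100 kb without a listed summit and 69.4 per Mb over all stretches between neighbours. The peak with the fewest, on 6H from 257937356 to 257937746, had a fold enrichment of 5.24, with 0 missing calls on one side and 2 on the other over a span of 226 kb.

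**Figure D5:**
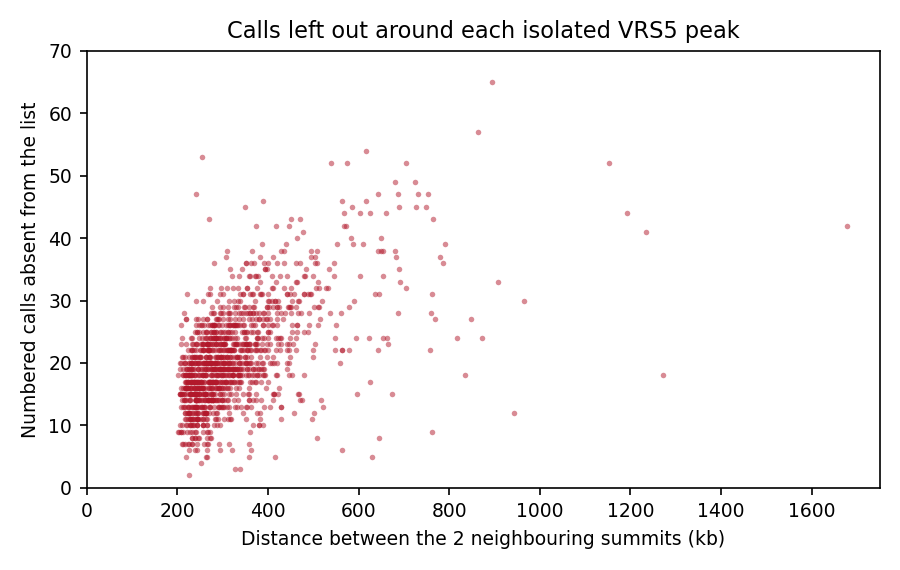
Number of numbered calls absent from the peak list between the neighbours of each isolated VRS5 peak (vertical axis) against the distance between these neighbouring summits (kb, horizontal axis), for the 1322 isolated peaks with a neighbour on each side. The counts lie between 2 and 65. No point lies at 0, over distances that the rule makes long.

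Isolated peaks themselves sometimes followed each other along the chromosome. Most, 902, stood singly between peaks that were not isolated, and 425 (32.0%) were in runs of at least 2. There were 159 runs of 2, 22 of 3, 9 of 4 and 1 of 5. The neighbour of an isolated peak already has a gap of over 100 kb on 1 side. Runs are thus partly built into the rule, and their counts are given as a description. The run of 5 spanned 1028 kb on 3H from 614540644 to 615568846, close to the chromosome end. Its peaks were enriched 5.41-, 7.25-, 6.14-, 4.01- and 4.17-fold in order of position, and a protein-coding gene lay within 15 kb of 3 of them. The smallest of these distances was 3.16 kb, to LOC123442295.

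In bins of 10 Mb, the 23 bins with 10 or more isolated peaks held 19.3 ± 6.89 protein-coding genes per Mb (SD over bins) and 12.8 ± 2.50 VRS5 peaks of any kind per Mb. The 48 bins with no isolated peak held 4.08 ± 2.0 genes and 26.5 ± 1.84 peaks per Mb. Greenscreen cover was 5.63% ± 1.68 and 6.29% ± 1.73 of these bins. The richest bin, on 7H from 620000001 to 630000000, held 18 isolated peaks among 96. On 2H, 17 of 108 peaks between 650000001 and 660000000 were isolated. Not each of the 23 bins was rich in genes: on 3H, the bin from 260000001 to 270000000 held 13 isolated peaks among 108 and 1.2 protein-coding genes per Mb. The rule itself favours bins with few peaks, and bins are not replicates.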

How the data were processed

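VRS5 binding was measured by DAP-seq in barley, with 6 libraries for VRS5-FLAG and 6 for GFP-FLAG. Reads were trimmed and mapped to MorexV3 by the authors, who called VRS5 against GFP peaks on the libraries of each bait together, removed peaks on greenscreen regions and kept q below 1e-10; MACS2 2.2.7.1, bedtools, BWA 0.7.17 and Trimmomatic 0.39 stand in the submitters' processing notes. The deposited pileup is a signal, the number of VRS5-FLAG reads over the summit base. Deposited fold enrichments are a ratio, pileup plus 1 over GFP-FLAG background plus 1. Deposited p-values and q-values are on the -log10 scale. The authors' score in the greenscreen list was not used.

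The members and lists were chosen with earlier results of these data known. The background was computed back from pileup and fold enrichment, and a Poisson tail with it gave the deposited -log10 p within 0.00071. Distances ran from summits to RefSeq gene spans of MorexV3. Named genes are those nearest to the 10 isolated peaks with the highest fold enrichment, those holding the 10 strongest isolated summits inside genes, and genes of the paper within 100 kb; gene descriptions and strands were not used here, so the word lists and promoter windows of the rule were not applied. SOC1-like is named although no isolated summit lay within 100 kb of it. Other loci are extremes of a measure, chosen after their values were seen, as were the bins, classes of spacing and missing call numbers. Shares have 95% Wilson, differences Newcombe and medians order-statistic intervals. The counting was tested on simulated peaks. Alternatives varied the isolation distance, q, greenscreen, chromosome ends, gene window and gene set. The genome sequence and motifs were not analysed here. Computations ran in Python 3.11.15 with pandas 2.3.3, numpy 2.4.6, matplotlib 3.10.9 and scipy 1.17.1.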

Additional observations from a re-analysis of the deposited data

How the results depend on the processing

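Of 51 alternative values over 7 results, 21 stayed within the interval of the main value or equal to it. The near-gene share was above that of the other peaks in 10 of 10 alternatives and the share in the outer 10% in 7 of 7, while the median fold enrichment was above it in 1 of 7. The median number of protein-coding genes within 100 kb fell to 1, equal to the other peaks, with an isolation distance of 50 kb. It was also 1 for members with q below 1e-20 and where only such summits counted. With an isolation distance of 50 kb, 8723 peaks were isolated, 19.8% of them near genes, at a median of 54.1 kb, with a median greenscreen cover of 4.43% and 24.3% in the outer 10%. With 150 kb, 276 peaks were left, with 35.5% near genes, a median of 28.9 kb and 63.4% in the outer 10%. The 378 isolated peaks with q below 1e-20 gave 22.0%, 55.0 kb and 37.3%, and a median fold enrichment of 5.79, against 5.72 for the other peaks with such q. Where only summits of q below 1e-20 counted, also as neighbours, 6166 were isolated, with 14.1% near genes, 68.2 kb, a fold enrichment of 5.68, a greenscreen cover of 4.15% and 19.8% in the outer 10%. The 371 isolated peaks with no greenscreen region within 100 kb, whose cover is 0 by construction, had a median fold enrichment of 4.42, against 4.43 for the other such peaks, and 47.4% lay in the outer 10%. The near-gene share was 11.1% for a window of 5 kb, 54.6% for 50 kb and 31.0% for all annotated genes, whose median distance was 31.4 kb. A background floor set for the assembled length gave a median fold enrichment of 4.22, and the outer 20% at either end held 59.0%. Beyond what each alternative does by construction, the cause of these shifts was not tested. No paired analysis was possible because each bait's libraries were pooled before deposit; leaving out a replicate could not be run for the same reason, nor could the motif alternatives, which need sequence. The pooled reads limit all values to counting error.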
